A study of Bos taurus with 6 samples.

Results

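The synaptonemal complex and the chromosome axis are represented here by 10 genes, namely SYCP1, SYCP2, SYCP3, SYCE1, SYCE2, SYCE3, TEX12, TEX11, HORMAD1 and HORMAD2. They were chosen by gene symbol, and each matched 1 of the 47249 genes of the deposited table. Testis RNA of Wandong cattle was sequenced from 3 calves aged 3 months, which were sexually immature, and from 3 mature bulls aged 3 years. All 6 animals were healthy and untreated, and each gave 1 library of total RNA depleted of ribosomal RNA and prepared strand-specifically. Expression was given as FPKM, a fragment count scaled for transcript length and library size, and no read counts were used here. The comparison asked how far the levels of these genes in the testis differ between the ages.

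In meiotic prophase, sister chromatids are organised as loops on a proteinaceous axis, and homologous chromosomes are then held together along their lengths by the synaptonemal complex. The complex is built of lateral elements, which form on the axes, and of transverse filaments that are joined in the middle by the central element. In the testis these structures belong to spermatocytes, which appear once the first germ cells enter meiosis before puberty. In whole tissue, a larger number of spermatocytes and more RNA per spermatocyte cannot be told apart.

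The library labelled calf 3 stood apart from the other 5. All 8 brain markers were highest there, with a summed level of 13608 FPKM against 8.36 to 16.6 FPKM elsewhere. The Leydig cell markers summed to 0.502 FPKM in calf 3 and to between 1085 and 2593 FPKM in the other libraries. Sertoli cell markers summed to 438 FPKM there, against 2693 and 2821 FPKM in the other calves and 380 to 398 FPKM in bulls. Most of the sum in calf 3 came from CLU, which is not restricted to Sertoli cells, and FSHR, WT1 and GATA4 were listed at 0 there. All 12 housekeeping genes examined were above 0 in every library. The summed FPKM of all genes ran from 587066 in calf 3 to 1098715 in calf 2, and between 27164 and 38975 genes were above 0. Results that rest on the calves are therefore given with and without calf 3.

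In bulls 9 of the 10 genes were higher and none was lower, where a call required an adjusted p below 0.05 and a change of at least 2-fold. All 10 log2 fold changes in limma were positive. Among all 18115 genes tested, 35.7% were called higher and 9.61% lower. Without calf 3, 9 of the 10 genes were again called higher, against 37.9% of all genes. After quantile normalization 8 of 10 were called higher, against 21.1% of all genes. The median log2 fold change of the 10 genes was 3.51, where that of all genes tested was 0.43. It was 3.19 against 0.43 without calf 3, and 2.75 against −0.26 after quantile normalization. Quantile normalization thus lowered the centre of all genes, and the 10 genes moved down with it.

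All 10 genes passed the filter of at least 1 FPKM in at least 3 libraries. The bulls alone met it for every gene, so that a low level in calves could not remove one. In calf 1, calf 2 and calf 3 respectively, 7, 10 and 2 of the genes reached 1 FPKM. The 2 in calf 3 were SYCP3 and TEX12, and through the calves alone only these could have passed. For genes low in every calf, such as SYCE2, SYCE3 and HORMAD2, a higher call was nearly the only one open. In all 10 genes every bull was above every calf, a separation found in 46.1% of the genes tested. The summed FPKM of the 10 genes was 43.6, 59.2 and 5.94 in the calves and 553, 555 and 512 in the bulls. Markers of later germ cells moved in the same direction, with 8 of 9 spermatocyte markers and 10 of 10 spermatid markers called higher in bulls. All spermatid markers but SPACA1 were below 1 FPKM in every calf, so the same limit of the filter applied to them. The spermatocyte markers summed to between 21.3 and 31.4 FPKM in calves and between 976 and 1096 FPKM in bulls. Of 8 Sertoli cell markers, 1 was called lower in bulls with all libraries, where 9.61% of all genes tested were. After quantile normalization 2 were, where 4538 of the 18115 genes tested were. These counts were near the share over all genes. Without calf 3 all 8 were called lower, where 2466 of the 18115 genes tested were. The part of cell composition in the results was not tested.

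**Figure D1:**
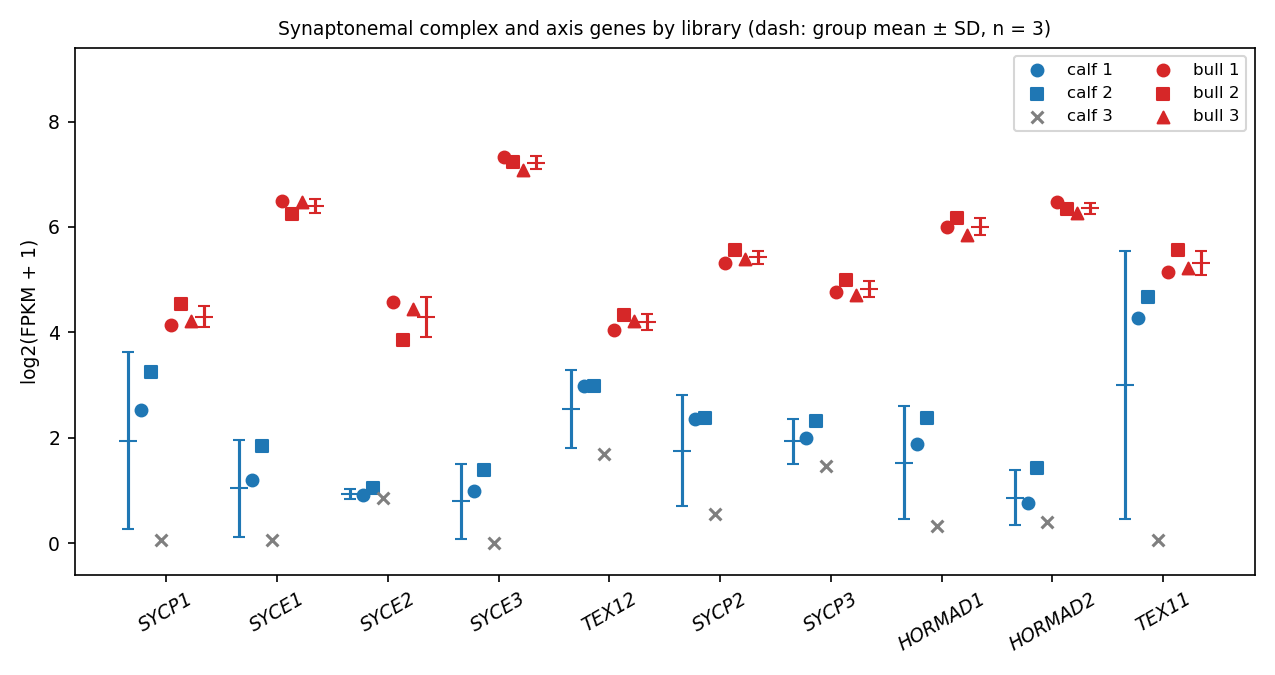
Level of each gene as log2(FPKM + 1) in the 3 calf and 3 bull libraries, 1 point per library, with the library labelled calf 3 marked separately and dashes with bars for the group mean ± SD (n = 3). Every bull point lies above every calf point of the same gene, and calf 3 lies below both other calves in all 10 genes.

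The transverse filament protein SYCP1 spans the gap between the lateral elements. SYCP1 (ENSBTAG00000032071, chromosome 3, 28332011 to 28486280) stood at 4.74, 8.55 and 0.0379 FPKM in calves 1 to 3 and at 16.6, 22.2 and 17.7 FPKM in bulls 1 to 3. Calf 3 was far below the other calves, whose levels were nearer to those of the bulls than for most of the other genes. The means were 4.44 ± 4.26 FPKM in calves and 18.8 ± 2.94 FPKM in bulls (SD, n = 3 each). The log2 fold change was 2.36 (SE 0.81), with an adjusted p of 0.0490 in limma, just under the threshold. Without calf 3 it was smaller but more precise, at 1.41 (SE 0.24, limma adjusted p 0.00229). After quantile normalization it was 1.64 with an adjusted p of 0.0806 in limma and was no longer called.

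SYCE3, a small central element protein needed early for assembly of the central region, had the largest change of the 10. SYCE3 (ENSBTAG00000046298, chromosome 5, 119854359 to 119884535) stood at 0.995 and 1.61 FPKM in calves 1 and 2, was listed at 0 in calf 3, and stood at 159, 150.3 and 134 FPKM in the bulls. The bulls were far above the calves, and no calf exceeded 1.61 FPKM. The mean rose from 0.867 ± 0.811 to 148 ± 12.6 FPKM, a log2 fold change of 6.42 (SE 0.37, limma adjusted p 4.00e-05). Leaving out calf 3 gave 6.03 (SE 0.15).

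SYCE1, a central element protein that binds SYCE3, showed the next largest change among the central element genes. SYCE1 (ENSBTAG00000035072, chromosome 26, 50136095 to 50141643) stood at 1.31, 2.61 and 0.0359 FPKM in the calves and at 89.2, 75.2 and 87.5 FPKM in the bulls. The mean rose from 1.32 ± 1.29 to 84.0 ± 7.67 FPKM, a log2 fold change of 5.37 (SE 0.46, limma adjusted p 0.000180). Leaving out calf 3 gave 4.88 (SE 0.21). The bulls varied little among themselves compared with the size of the change.

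SYCE2 and TEX12 form a complex that extends the central element along the chromosome. SYCE2 (ENSBTAG00000016213, chromosome 7, 12638833 to 12659863) stood at 0.880, 1.06 and 0.804 FPKM in calves and at 22.8, 13.5 and 20.6 FPKM in bulls. Calf 3 was here close to the other calves in the gene sum, but 84.2% of its level came from antisense or overlapping transcript entries. Assembled entries of SYCE2 held 0.127 FPKM in calf 3, against 0.578 and 0.454 FPKM in calves 1 and 2. The bulls spread more than for any other of the genes, with a coefficient of variation of 25.7%. The mean of SYCE2 rose from 0.915 ± 0.132 to 18.9 ± 4.87 FPKM, and its log2 fold change was 3.35 (SE 0.24, limma adjusted p 9.03e-05) and 3.31 (SE 0.23) without calf 3. TEX12 (ENSBTAG00000016548, chromosome 15, 22504072 to 22509205) stood at 6.85, 6.87 and 2.22 FPKM in calves and at 15.4, 19.1 and 17.5 FPKM in bulls. The mean of TEX12 rose from 5.32 ± 2.68 to 17.4 ± 1.88 FPKM. It was the smallest of the called changes, at 1.65 (SE 0.38, limma adjusted p 0.0120), and was 1.22 (SE 0.13) without calf 3. Leaving out bull 2 put TEX12 just past the threshold, with an adjusted p of 0.0510 in limma and a log2 fold change of 1.58. Thus the partners SYCE2 and TEX12, though called in the same direction, differed in level in calves 1 and 2 by more than the range of either.

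SYCP2 and SYCP3 are the coiled-coil proteins of the lateral elements. SYCP2 (ENSBTAG00000003608, chromosome 13, 56607269 to 56686648) stood at 4.10, 4.18 and 0.457 FPKM in calves and at 38.9, 46.0 and 41.1 FPKM in bulls. Its mean rose from 2.91 ± 2.13 to 42.0 ± 3.61 FPKM, a log2 fold change of 3.67 (SE 0.52, limma adjusted p 0.00148), or 3.06 (SE 0.12) without calf 3. SYCP3 (ENSBTAG00000002492, chromosome 5, 65511426 to 65553432) stood at 3.00, 3.99 and 1.77 FPKM in calves and at 26.2, 30.8 and 25.0 FPKM in bulls. Its mean rose from 2.92 ± 1.11 to 27.3 ± 3.06 FPKM, a log2 fold change of 2.89 (SE 0.25, limma adjusted p 0.000209), or 2.66 (SE 0.15) without calf 3. SYCP2 was above SYCP3 in calves 1 and 2 and in each bull, and below it in calf 3.

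HORMAD1 and HORMAD2 are HORMA domain proteins that mark unsynapsed axes and are removed as synapsis proceeds. HORMAD1 (ENSBTAG00000002724, chromosome 3, 20016351 to 20036946) stood at 2.69, 4.18 and 0.250 FPKM in calves and at 62.8, 71.1 and 56.8 FPKM in bulls. Its mean rose from 2.38 ± 1.99 to 63.6 ± 7.21 FPKM, a log2 fold change of 4.48 (SE 0.53, limma adjusted p 0.000697), or 3.88 (SE 0.18) without calf 3. HORMAD2 (ENSBTAG00000013877, chromosome 17, 69132614 to 69203058) stood at 0.704, 1.67 and 0.319 FPKM in calves and at 87.5, 79.9 and 75.4 FPKM in bulls. Its mean rose from 0.899 ± 0.698 to 80.9 ± 6.11 FPKM, a log2 fold change of 5.49 (SE 0.28, limma adjusted p 2.77e-05), or 5.26 (SE 0.20) without calf 3. HORMAD2 was thus below HORMAD1 in calves 1 and 2 and above it in every bull.

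TEX11, an X-linked meiotic protein that acts in synapsis and crossover formation, was the only one of the 10 not called. TEX11 (ENSBTAG00000016272, chromosome X, 79752631 to 79930935) stood at 18.3, 24.4 and 0.0467 FPKM in calves and at 34.3, 46.5 and 36.5 FPKM in bulls. Calf 3 was near 0, while the highest calf, at 24.4 FPKM, was nearer to the lowest bull than for most of the other genes. The means were 14.3 ± 12.7 FPKM in calves and 39.1 ± 6.48 FPKM in bulls. The log2 fold change was 2.31 (SE 1.22, 95% confidence interval −0.67 to 5.30), with an adjusted p of 0.156 in limma. Without calf 3 it was 0.84 (SE 0.18, limma adjusted p 0.00588), which passed the p threshold and fell short of the 2-fold threshold. TEX11 was called in none of the alternatives, over which its log2 fold change lay between 0.07 and 3.26.

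**Figure D2:**
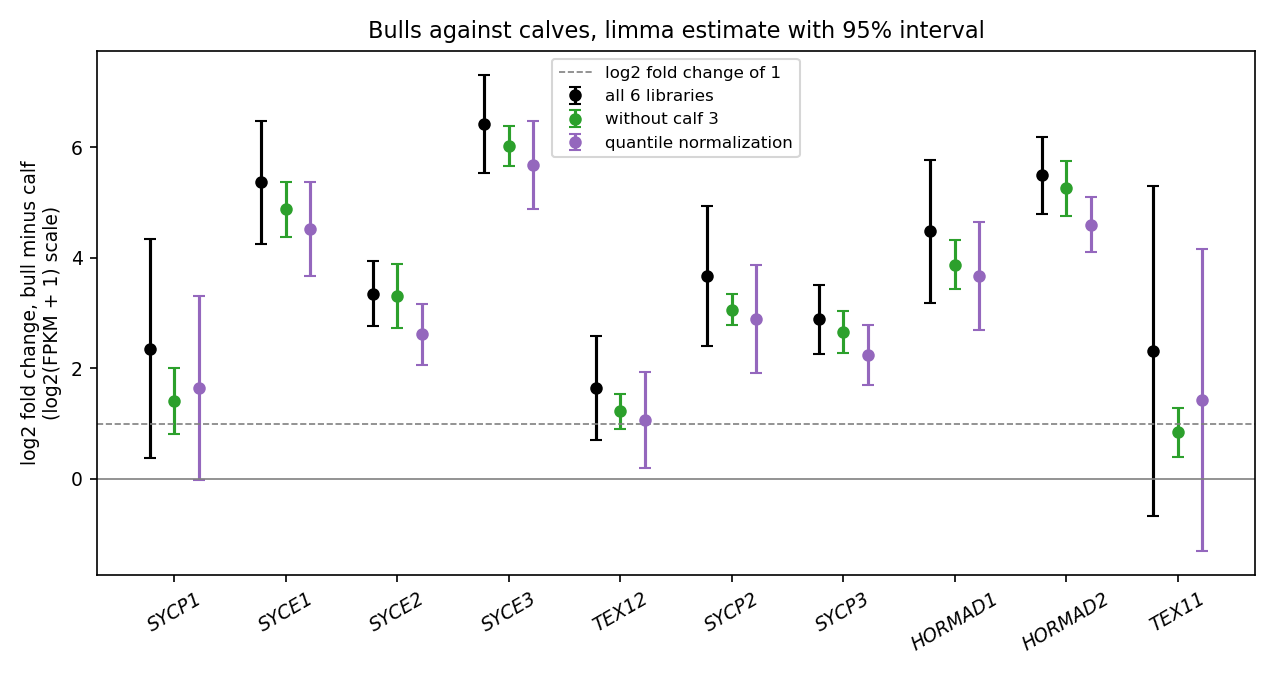
Log2 fold change, bulls minus calves, of each of the 10 genes with all 6 libraries, without the library labelled calf 3, and after quantile normalization. Bars on the points are 95% confidence intervals, and TEX11 is the gene whose interval with all libraries spans 0.

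Measured against calves 1 and 2 only, the mean level in bulls was 114 times as high for SYCE3, 68.1 times for HORMAD2 and 42.9 times for SYCE1. The ratio was 19.5 for SYCE2, 18.5 for HORMAD1, 10.2 for SYCP2 and 7.81 for SYCP3. It was lowest for SYCP1 at 2.84, TEX12 at 2.53 and TEX11 at 1.83. The genes therefore fell into a wide range of changes, and the smallest ratios belonged to the genes with the highest levels in these calves. The calf level is the divisor of the ratio, so this relation is partly built in.

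Levels per kilobase were ordered differently at the 2 ages. In bulls SYCE3 led with a mean of 148 FPKM, and SYCE1 at 84.0 FPKM and HORMAD2 at 80.9 FPKM followed with overlapping ranges. HORMAD1 came next at 63.6 FPKM, then SYCP2 at 42.0 FPKM and TEX11 at 39.1 FPKM, whose ranges overlapped. SYCP3 followed at 27.3 FPKM, and SYCE2, SYCP1 and TEX12 closed the order at 18.9, 18.8 and 17.4 FPKM with overlapping ranges. In calves 1 and 2 TEX11 led with a mean of 21.4 FPKM, above TEX12 at 6.86 FPKM and SYCP1 at 6.64 FPKM. SYCP2 followed at 4.14 FPKM, SYCP3 at 3.49 FPKM and HORMAD1 at 3.44 FPKM, and the range of HORMAD1 overlapped those of both SYCP2 and SYCP3. SYCE1 at 1.96 FPKM, SYCE3, HORMAD2 at 1.19 FPKM and SYCE2 at 0.970 FPKM stood at the bottom, each overlapping the next in range.

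Expressed as a share of the summed FPKM of the 10 genes, TEX11 made up 42.0% and 41.3% in calves 1 and 2 but 6.21%, 8.38% and 7.12% in the bulls. SYCE3 moved the other way, from 2.29% and 2.71% to 28.8%, 27.1% and 26.2%. The shares of calf 3 stood apart from both, since its sum of 5.94 FPKM was made up largely of TEX12 at 37.4% and SYCP3 at 29.8%. SYCP2 was nearly constant in share, at 9.41% and 7.06% in calves 1 and 2 and at 7.04% to 8.29% in bulls. Shares within a library do not depend on how the library was scaled, though a rise of 1 gene lowers the share of the others.

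**Figure D3:**
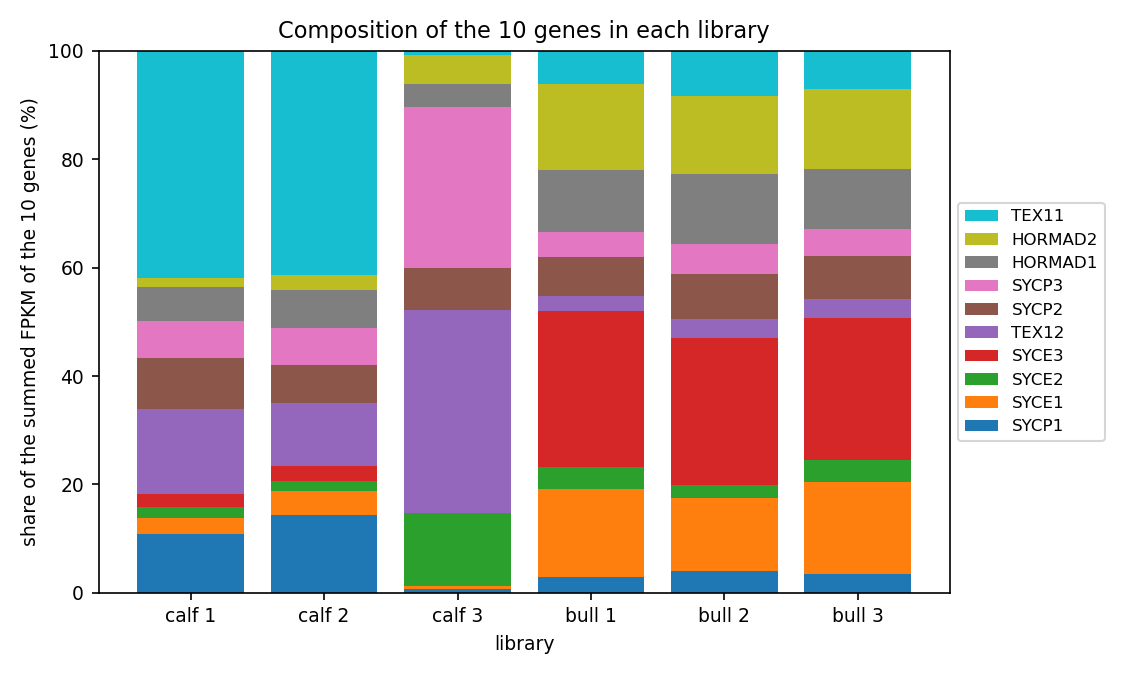
Share of each gene in the summed FPKM of the 10 genes in percent, 1 stacked bar per library. TEX11 takes the largest share in calves 1 and 2, and SYCE3 takes the largest share in each bull.

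The balance between the axis and lateral element genes and the central region genes was set as a log2 ratio of 2 sums of FPKM. The first sum was of SYCP2, SYCP3, HORMAD1 and HORMAD2, the second of SYCP1, SYCE1, SYCE2, SYCE3 and TEX12. A pseudocount of 1 was added to each sum. It was −0.46, −0.53 and −0.11 in calves and −0.49, −0.30 and −0.48 in bulls. The means of −0.37 ± 0.22 in calves and −0.42 ± 0.11 in bulls (SD) differed by less than the spread between animals. The difference of −0.058 had an exact permutation p of 0.8 (two-sided, 20 labelings), where 3 animals against 3 allow no p below 0.1. The summed level of the central region genes was the larger in every library. The difference was 0.069 without calf 3, −0.025 without the pseudocount and 0.22 with each gene divided by its mean over the libraries. It was −0.75 with TEX11 counted among the axis genes (exact permutation p 0.2), so its size and direction depended on how the sums were formed.

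The gene level is the sum of the levels of the transcript entries of the gene, of which the 10 genes had 33. Of these, 18 passed the filter and 15 were called higher in bulls (16 without calf 3), where 34.8% of all 23212 transcripts tested were. No share over all transcripts is given for the fit without calf 3. Several entries passed the filter through the bulls only, so a higher call was nearly the only one open to them. Among these were SYCP1-201, SYCP1-202, SYCP2-203, SYCP2-204 and the tested SYCE2 entries, all below 1 FPKM in every calf. SYCE3, TEX12, HORMAD2 and TEX11 had a single entry each. For SYCP1, the entry SYCP1-203 held between 78.5% and 82.3% of the level in the libraries other than calf 3 and was listed at 0 there. SYCP1-203 was not called (log2 fold change 2.22, limma adjusted p 0.0503), while the minor SYCP1-202 was (1.29, limma adjusted p 0.00720). The call of SYCP1 thus rested on levels around the threshold in its entries as well.

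HORMAD1-201 carried 86.1% and 85.9% of the HORMAD1 level in calves 1 and 2 and 97.8% to 98.7% in bulls, and was listed at 0 in calf 3, where the level came from HORMAD1-202. For SYCP3, the share of SYCP3-202 was 15.9% and 29.3% in calves 1 and 2 and 36.5%, 38.2% and 36.4% in bulls. In calf 3 the SYCP3 level came from assembled entries (60.0%) and, for most of the rest, an antisense entry, with 1.01% from Ensembl entries. The SYCP3 value of calf 3 was therefore largely not that of the annotated SYCP3 transcripts. For SYCE2, assembled entries held 90.4% to 96.5% of the level in bulls, and the Ensembl entry SYCE2-201 held 0.300% to 2.08%. Antisense or overlapping entries held 33.9%, 57.2% and 84.2% of SYCE2 in calves and 3.04% to 7.53% in bulls. Without such entries the log2 fold change was 3.75 for SYCE2 and 3.03 for SYCP3.

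**Figure D4:**
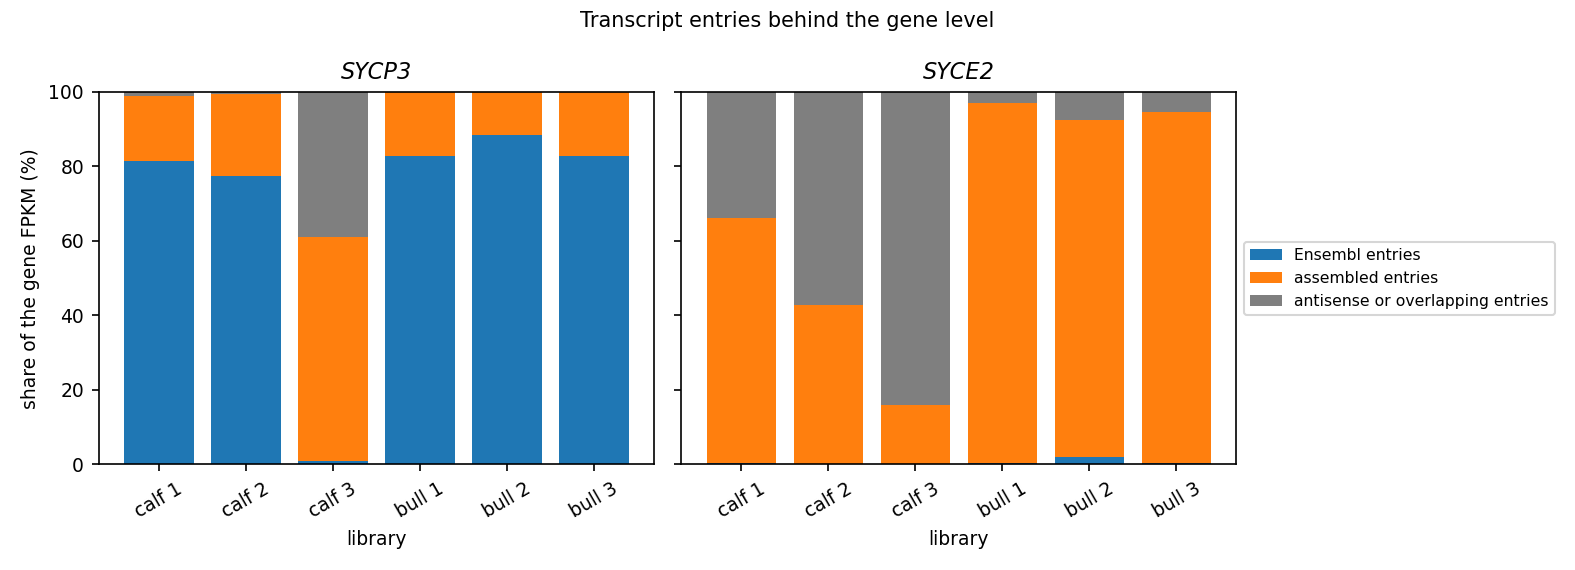
Share of the gene FPKM of SYCP3 and SYCE2 held by Ensembl, assembled, and antisense or overlapping transcript entries in percent, by library. Antisense or overlapping entries take most of the SYCE2 level in calf 3 and little of it in the bulls.

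Most of the 10 loci overlap other genes of the table, and whether strand was used in computing FPKM is not given in the sources used here. SYCP3 overlapped CHPT1, which stood at 11.8, 13.2 and 33.1 FPKM in calves and at 76.9, 56.4 and 58.7 FPKM in bulls. TEX12 overlapped IL18, which stood at 2.41, 2.79 and 2.09 FPKM in calves and at 1.46, 0.870 and 1.04 FPKM in bulls, against the direction of TEX12. SYCE2 overlapped GCDH, which stood at 9.52, 9.95 and 12.9 FPKM in calves and at 4.25, 5.01 and 3.73 FPKM in bulls. In calves GCDH was thus above SYCE2. HORMAD1 overlapped GOLPH3L, which stood at 10.3, 10.7 and 9.15 FPKM in calves and at 13.0, 12.7 and 11.1 FPKM in bulls. SYCE1 and SYCE3 overlapped no other gene of the table. Whether reads of these neighbours entered the levels of the 10 genes was not tested.

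Other genes of meiotic prophase were described by role. The lists held 78 symbols, some of them aliases of the same gene, such as IHO1 and CCDC36. Of these symbols 61 had a row and 57 were tested. Of the 57, 39 were called higher in bulls and none lower, against 35.7% and 9.61% of all genes. Some, such as SPO11, CCDC36 and TERB2, were below 1 FPKM in every calf and passed the filter through the bulls only. For these, a higher call was nearly the only one open. Their median log2 fold change was 1.84. In limma only CHEK2 and SUN2 were lower at an unadjusted p under 0.05 (0.0180 and 0.00261). Without calf 3, 37 were higher and 1 was lower (median 1.65), where 37.9% of all genes were higher and 2466 of 18115 lower. After quantile normalization 31 were higher and 4 lower, namely CHEK2, BRCA2, SUN2 and TERF1. Of all 18115 genes tested, 21.1% were then higher and 4538 lower.

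Cohesins of the meiotic axis were called higher in 3 of 5 genes (3 without calf 3), with a median of 2.24. STAG3, the meiosis-specific stromal antigen, led with a log2 fold change of 4.40 (limma adjusted p 4.13e-05), from 3.69 ± 1.42 FPKM in calves to 95.1 ± 9.28 FPKM in bulls. REC8, a meiotic kleisin, stood at 0.579 ± 0.0861 FPKM in calves and at 1.82 ± 0.151 FPKM in bulls. Its log2 fold change of 0.84 (limma adjusted p 0.00125) fell short of the 2-fold threshold, so it was not called. It was called at 1.51 with a pseudocount of 0.1 and at 1.01 with a common total, and was −0.24 after quantile normalization. SMC3, shared with mitotic cohesin, was the lowest cohesin at −0.25. Among further central region genes, both genes tested were called, FKBP6 at 4.81 and PSMA8, the testis-specific proteasome subunit, at 3.45, while SYCP2L was not tested.

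Of the axis remodelling and checkpoint genes 4 of 8 were called (4 without calf 3, median 1.07), with BRCA1 highest at 1.85. SKP1 at 0.50, ATR at 0.64 and ATRIP at 0.58 were not called, and CHEK2, a checkpoint kinase, was lowest at −0.66, short of the 2-fold threshold (limma adjusted p 0.0344). Genes of double-strand break formation were called in 6 of 7 (5 without calf 3, median 2.14). CCDC36, also known as IHO1, which recruits the break machinery to axes, was highest at 4.44, and SPO11, the break-forming enzyme, was called at 1.08 with all libraries and fell short at 0.86 without calf 3. MEI4 was lowest at 0.13 and was not called, and PRDM9 was not tested.

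Strand exchange genes were called in 7 of 12 (6 without calf 3, median 2.29), with SPATA22 highest at 4.20. BRCA2 was lowest at −0.40, and RPA1 at −0.03, RPA2 at 0.83, SFR1 at 0.19 and TEX15 at 1.77 were not called, TEX15 standing at 0.21 without calf 3. Crossover genes were called in 6 of 9 (5 without calf 3, median 1.73), with CNTD1 highest at 4.05. MSH5 at 0.82, MLH3 at 0.60 and SHOC1 at 0.25 were not called, SHOC1 being lowest, and EXO1 was not tested. MSH4, of the crossover list, lost its call without calf 3.

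Genes that tether and move telomeres were called in 6 of 8 (6 without calf 3, median 2.71). TERB2, which links telomeres to the nuclear envelope, was highest at 5.23, from 0.311 ± 0.275 FPKM in calves to 47.8 ± 7.99 FPKM in bulls. TERF1 at −0.40 was not called, SUN2 was lowest at −0.96 (limma adjusted p 0.00676), just short of the 2-fold threshold, and was called lower when calf 3 was left out (−1.09), and MAJIN was not tested. Genes of meiotic entry were called in 5 of 6 (6 without calf 3, median 3.00). MEIOC, which prolongs meiotic prophase, was highest at 4.91, and YTHDC2, its partner, was lowest at 1.10. DAZL was not called at 2.98 (limma adjusted p 0.103) and was called at 1.38 without calf 3.

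**Figure D5:**
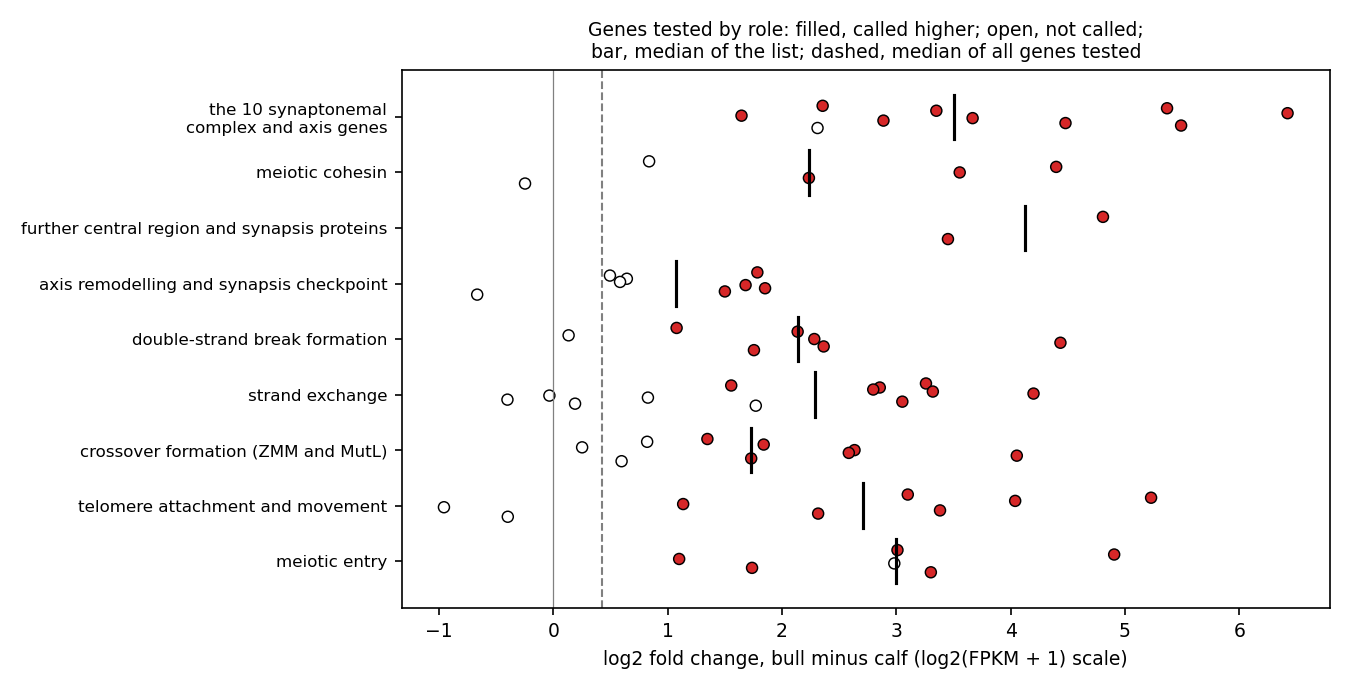
Log2 fold change, bulls minus calves, of the 57 tested genes of meiotic prophase, grouped by role, and of the 10 genes in the top row, 1 point per gene with called genes filled. Bars mark the median of each list and the dashed line the median of all genes tested, 0.43. In 7 of the 8 role lists at least 1 gene lies above 4, and no gene is called lower with all libraries.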

How the data were processed

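Testis RNA of 3 calves and 3 bulls was measured, with groups taken from the labels. The authors removed ribosomal reads with Bowtie2, mapped the remainder using TopHat2 and used StringTie for assembly. The deposited FPKM values of genes and transcripts were used as they stand, and the tool that made them was not given in the sources used here. Positions are as deposited. The methods name a UMD assembly, but all 10 loci overlapped the RefSeq locus of the same symbol on an ARS-UCD assembly. Reads could not be recovered from the values (at most 3.44% of low values shared a ratio to calf 1), so depth is unknown and no counting interval is given. The columns of values that matched no sample numbered 0.

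Levels were compared as log2(FPKM + 1), so fold changes of low genes are understated. Genes reaching 1 FPKM in 3 or more of the 6 libraries were fitted with limma 3.58.1 (R 4.3.3, data.table package version 1.17.8; trended empirical Bayes, two-sided, Benjamini-Hochberg over all genes or transcripts tested), and the code was tested on simulated data. Genes were called at an adjusted p under 0.05 combined with a 2-fold difference or more. P-values measure the spread between 3 animals per group. The 10 genes, the role lists and the markers were chosen with earlier results of these data known. Named were all 10 genes, the highest and lowest of each role list, genes not called or not tested, and the 5 other genes with the nearest profile. SPO11, MSH4, PSMA8, the markers named singly and the overlapping neighbours were named after their values were seen. Alternatives changed scaling, pseudocount, filter, model and samples.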

Additional observations from a re-analysis of the deposited data

How the results depend on the processing

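SYCE1, SYCE2, SYCE3, SYCP2, SYCP3, HORMAD1 and HORMAD2 kept direction and call in all 17 alternatives run. The number of the 10 genes called was 8 under quantile normalization, 75th percentile scaling, a pseudocount of 0.1, no filter and no mean-variance trend, and 7 to 9 when each library was left out in turn. It was 7 when calf 3 was left out and quantile normalization was applied together, an alternative chosen after seeing the data, as was the removal of antisense and overlapping entries. SYCP1 lost its call in 10 of 17 alternatives (log2 fold change 0.86 to 3.39), and the cause was not tested. Over all genes, 6474 were higher and 1741 lower. Quantile normalization gave 3827 and 4538, a filter of 5 FPKM gave 4028 and 1028 with fewer genes tested, 75th percentile scaling gave 2812 lower and a common total gave 1151 lower. Leaving out each library gave 6034 to 6859 higher and 1218 to 2466 lower, 14 to 17 transcript entries higher, and 35 to 38 role genes higher. Role genes called lower were 0, but 4 under quantile normalization, 1 under 75th percentile scaling, 1 with a pseudocount of 0.1, 1 with array weights and 0 to 1 when each library was left out. The difference in the axis to central log2 ratio was −0.058, and was 0.22 with each gene divided by its mean, −0.75 with TEX11 counted among the axis genes, and −0.14 to 0.069 when each library was left out.

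The log2 fold changes of 8 role genes, none of them called in the main fit, changed sign. Under quantile normalization REC8 was −0.24, SKP1 −0.17, ATR −0.0046, ATRIP −0.0093, MEI4 −0.67, SFR1 −0.34 and SHOC1 −0.68. Under 75th percentile scaling MEI4 was −0.15, SFR1 −0.14 and SHOC1 −0.0075, and with a common total RPA1 was 0.18. With array weights MEI4 was −0.57, SFR1 −0.065 and SHOC1 −0.19. When each library was left out, MEI4 ran from −0.65 to 0.62, RPA1 from −0.33 to 0.15, SFR1 from −0.081 to 0.44 and SHOC1 from −0.25 to 0.51. The causes were not tested.

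Calves and bulls share replicate numbers, and the labels do not say what the numbers stand for. Deviations from the group means of same-numbered libraries correlated at 0.0277, 0.0246 and 0.0341, and each library correlated best with its own number. The calf deviations include the distinct profile of calf 3, so this check cannot tell whether same-numbered libraries shared a batch. The main fit treated the groups as unpaired. With the replicate number as a block, 9 of the 10 genes, 16 transcript entries and 38 role genes were called higher and 0 role genes lower, and over all genes 6437 were higher and 1691 lower. With 3 animals per group and 1 calf library of doubtful composition, levels in calves rest on few libraries, and FPKM without counts sets no detection limit.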

Other observations

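Outside the genes of the synaptonemal complex, 5 genes had the profile over the 6 libraries nearest to the mean profile of the 10, by the Euclidean distance of centred log2(FPKM + 1) values. They were DMRTC2 (distance 0.208), POLB (0.244), TIMD4 (0.334), B9D1 (0.342) and CCNY (0.366), from 13383 genes. DMRTC2, a DM-domain factor of the male germ line, stood at 1.66, 1.99 and 0 FPKM in calves and at 28.1, 29.3 and 27.4 FPKM in bulls. POLB, a DNA repair polymerase, stood at 23.5, 33.9 and 9.77 FPKM in calves and at 275, 283 and 249 FPKM in bulls. The nearest of the 10 was SYCP2 (0.357) and the farthest was SYCE3 (3.24), and of the other genes 4 lay nearer than SYCP2 and 2598 nearer than SYCE3.

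On chromosome X, which carries TEX11, 151 of 664 genes tested were called higher in bulls (22.7%, median log2 fold change −0.38). On the autosomes 6176 of 17173 were (36.0%, median 0.44). The difference between X and autosomes was not tested. Among the other markers, 2 of 4 peritubular myoid cell, 1 of 3 macrophage and 2 of 8 spermatogonial markers were called higher in bulls. None of 4 endothelial and 5 Leydig cell markers were, where 35.7% of all genes tested were called higher. The same counts were called higher without calf 3, against 37.9% of all genes. The lists are short, and no difference of these counts from the shares over all genes was tested. Called lower were 1 macrophage marker (CSF1R) and 1 spermatogonial marker (ZBTB16), where 9.61% of all genes were. Without calf 3, 1 macrophage, 2 spermatogonial and 1 peritubular myoid marker were called lower, where 2466 of the 18115 genes tested were. After quantile normalization 3 endothelial, 3 spermatogonial and 1 macrophage marker were called lower, where 4538 of the 18115 genes were.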
